A study of Mus musculus with 12 samples.

Results

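Heme synthesis and iron handling were followed in fasted mouse liver through 9 genes, which were taken by name from a table of 56748 genes: Alas1, Alad, Fech, Hmox1, Flvcr1, Tfrc, Tfr2, Fth1 and Ftl1. RNA was sequenced from 12 whole livers of mice fasted for 24 h, 4 of each genotype. The controls, called WT, carried floxed alleles of Cpt1a, Cpt1b and Cpt2 according to their label, which names no floxed Atf3 allele. The study describes controls floxed for Atf3 and Cpt2 in its other assays of these KOs, so any difference of line between WT and KO livers cannot be told apart from the deletions. SKO livers had Cpt2 deleted, the mitochondrial carnitine palmitoyltransferase needed to burn long-chain fatty acids, and DKO livers had deletions of both Cpt2 and the stress-induced transcription factor Atf3. Both KOs were made with Cre driven by the albumin promoter, which acts mainly in hepatocytes, so other liver cells may keep the genes. The Atf3 allele was brought in on C57BL/6N. The labels give no age, sex, litter or batch for a liver, so p-values measure the spread between these samples.

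Heme is built in steps shared between mitochondria and cytosol. Alas1 makes the first precursor and sets the rate in liver, Alad joins that precursor into a pyrrole in the cytosol, and Fech inserts iron into protoporphyrin in the mitochondrion. Hmox1 splits heme and frees its iron, and Flvcr1 carries heme out of the cell. Tfrc takes up iron bound to transferrin, Tfr2 senses transferrin-bound iron and acts on hepcidin in hepatocytes, and Fth1 and Ftl1 are the heavy and light chains of ferritin, which stores iron. Liver stores much of the body's iron and uses heme mainly for cytochromes.

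Iron-regulatory proteins are known to bind a short hairpin, the iron-responsive element, when iron is low. Bound near the start of a ferritin mRNA they block its translation, and bound in the 3′UTR of the Tfrc mRNA they protect it from decay. The hairpins of the members are shown because they are the sequence feature that ties ferritin and Tfrc to iron. They were searched in GENCODE M21 transcripts on GRCm38 as the loop CAGTGN, with a last base other than G, between 5 paired bases on each side, with an unpaired C before the stem and at least 3 pairs below it. Each is printed 5′ to 3′ on the strand of its gene with the 6 loop bases in capitals.
Fth1 5′UTR, plus strand, chr19:9982733-9982759: tcctgcttcaaCAGTGCttgaacggaa
Ftl1 5′UTR, minus strand, chr7:45459780-45459806: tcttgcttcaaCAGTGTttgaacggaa
Tfrc 3′UTR, plus strand, chr16:32631220-32631246: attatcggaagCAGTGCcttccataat
Tfrc 3′UTR, plus strand, chr16:32631599-32631625: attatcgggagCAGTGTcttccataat
Tfrc 3′UTR, plus strand, chr16:32631664-32631690: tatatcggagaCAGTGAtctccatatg
Tfrc 3′UTR, plus strand, chr16:32631711-32631737: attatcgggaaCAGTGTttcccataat

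The Fth1 and Ftl1 hairpins were the same at 25 of 27 bases, and the 4 Tfrc hairpins matched each other at 17 to 25 bases. Such a hairpin was found in the 5′UTR of 8 of 21899 protein-coding genes (0.0365%) and in the 3′UTR of 23 (0.105%). Besides these 3 members, the erythroid ALA synthase Alas2 and the iron exporter Slc40a1 were listed with a match in the 5′UTR, among the genes considered here. Sites on chromosome 18, where Fech lies, were left out of this listing, so whether Fech held a match is not given. A match is a description of the letters, and RNA counts do not measure translation.

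The total count per liver ran from 14710304 to 20030055. Cpt2 had 199 to 250 CPM (counts scaled to the library size) in the WT livers, against 109 to 158 CPM without Cpt2 alone and 99.9 to 125 CPM in the double KO. Atf3 had 17 to 39 counts in WT livers and 259 to 1056 in SKO livers, while DKO replicates 1 to 4 had 164, 177, 265 and 5 counts. The RNA-seq mice are described as male, but SKO replicate 3 and DKO replicate 4 had 18063 and 20855 counts on Xist and 2 and 0 on 4 Y-linked genes, against at most 19 on Xist and at least 2741 on the Y-linked genes elsewhere. These livers were kept, and the counts of members and of list genes called in DKO livers are also given without DKO replicate 4. Hepatocyte markers, led by albumin, summed to 82088 to 101099 CPM in the WT livers, 47092 to 78410 CPM for SKO and 48458 to 103187 CPM for DKO, with DKO replicate 4 at the top. In whole liver, fewer cells of a type and less RNA per cell cannot be told apart.

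The table places Alas1 on chromosome 9, Alad on 4, Fech on 18, Hmox1 on 8, Flvcr1 on 1, Tfrc on 16, Tfr2 on 5, Fth1 on 19 and Ftl1 on 7, all protein-coding. Levels were compared between genes on the deposited FPKM scale, which divides by gene length. In WT livers the order was Ftl1 (901 to 1000 FPKM), Fth1 (413 to 484), Alas1 (103 to 218) and Tfr2 (103 to 153), Alad (53.6 to 68.9), Fech (13.0 to 15.3) and Hmox1 (6.68 to 13.5), Tfrc (5.48 to 8.32) and Flvcr1 (0.612 to 0.837). Alas1 and Tfr2 overlapped, as did the neighbours Fech and Hmox1 and the neighbours Hmox1 and Tfrc, and all other neighbours in this order were separated. In SKO livers Hmox1 stood at 22.04 to 114 FPKM, above the 7.76 to 10.1 of Fech in every liver. The DKO livers had Hmox1 at 15.3 to 184 FPKM, again above Fech at 7.36 to 12.5. This order rests on the gene lengths used, 13838 bases for Fech and 1751 for Hmox1. In counts, Fech exceeded Hmox1 in SKO replicates 1 and 3 and in DKO replicates 2 and 4. Within a liver, the FPKM of Alas1 was 7.60 to 32.7 times that of Hmox1 in WT, whereas the SKO livers had 1.08 to 6.95 times and the DKO livers 0.568 to 7.41 times. The step that makes heme and the step that breaks it down thus stood closer in RNA level in every KO liver than in any WT liver.

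**Figure D1:**
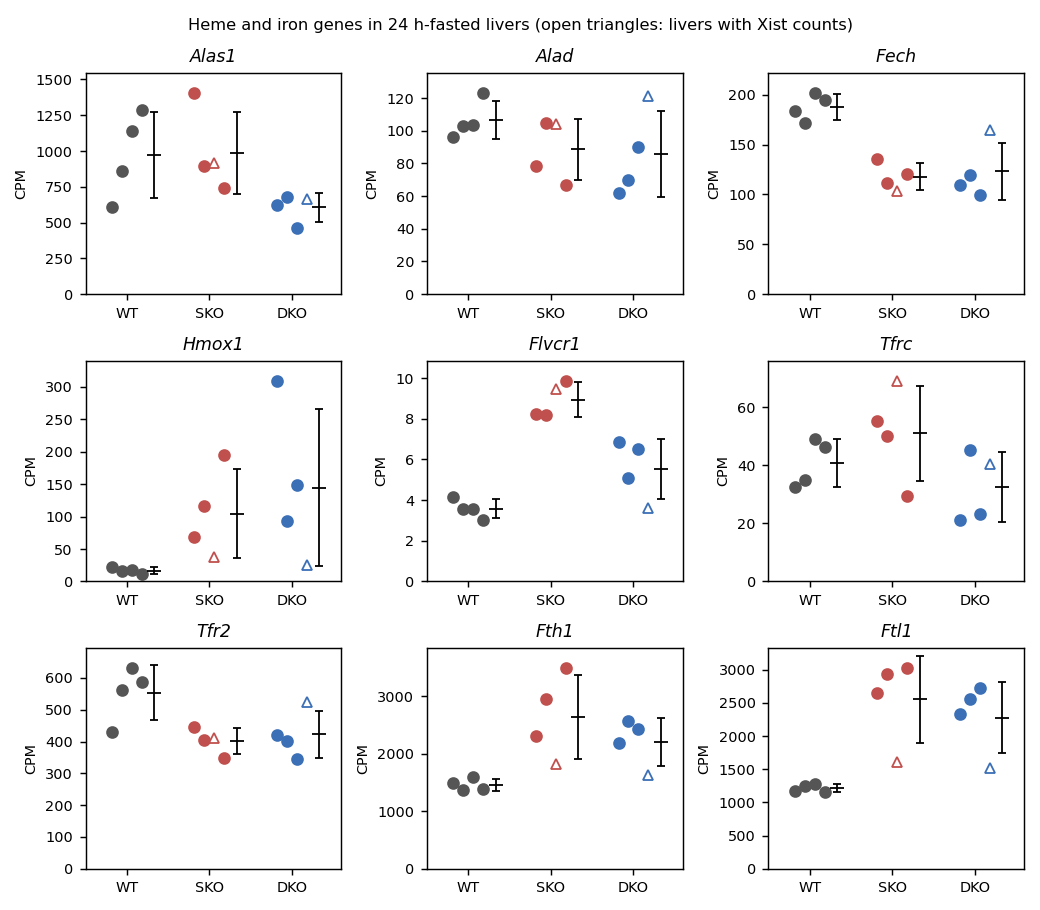
CPM of the 9 genes in each liver by genotype, with a linear axis that starts at 0 in each panel; points are livers, bars beside them are mean ± SD (n = 4), and open triangles are the livers with Xist counts. Hmox1, Fth1 and Ftl1 are above every WT liver in all KO livers, with the open triangle lowest in both KO genotypes.

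The comparison of SKO with WT livers asks what loss of hepatic fatty acid oxidation does to these genes during a fast. Hmox1, Flvcr1, Ftl1 and Fth1 rose, Fech and Tfr2 fell, and Alas1, Alad and Tfrc did not pass the threshold of an adjusted p under 0.05. Of all 14261 genes tested, 16.7% rose and 15.4% fell, against 4 and 2 of the 9 members. Groups did not overlap for 5 members, against 33.2% of all genes. All adjusted p-values come from the quasi-likelihood test of edgeR and are adjusted by Benjamini-Hochberg over the genes tested.

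Heme breakdown had the largest difference among the members. Hmox1 (ENSMUSG00000005413) was at 22.7, 15.6, 17.8 and 11.2 CPM in WT and at 68.9, 115.9, 37.3 and 195 CPM in SKO replicates 1 to 4. Each SKO liver exceeded every WT liver, with SKO replicates 2 and 4 highest and replicate 3 lowest. The mean rose 6.17-fold from 16.8 ± 4.81 to 104 ± 68.7 CPM (SD, n = 4), a log2 fold change of 2.63 (SE 0.43, adjusted p = 0.000749). Without SKO replicate 3, the liver with Xist counts, all called members kept their call.

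Flvcr1 (ENSMUSG00000066595), the heme exporter, was scarce but the most uniform in SKO livers of the members that rose. It had 4.16, 3.54, 3.58 and 3.02 CPM in WT and 8.24, 8.19, 9.46 and 9.88 CPM in SKO livers, from 55 to 182 reads a liver. The groups were far apart, with a log2 fold change of 1.32 (SE 0.18, adjusted p = 0.000220), or 2.49-fold.

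Ferritin RNA rose in both chains. Ftl1 (ENSMUSG00000050708) was at 1168, 1247, 1277 and 1152 CPM in WT and at 2648, 2934, 1607 and 3026 CPM in SKO livers. The WT livers lay within a narrow range and SKO replicate 3 was again the lowest of its genotype, yet above all WT livers. The log2 fold change was 1.07 (SE 0.19, adjusted p = 0.00135), or 2.11-fold. Fth1 (ENSMUSG00000024661) was at 1490, 1373, 1601 and 1390 CPM in WT and at 2319, 2956, 1818 and 3496 CPM in SKO livers. Its groups did not overlap either, and the log2 fold change was 0.85 (SE 0.19, adjusted p = 0.00592).

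On the FPKM scale the light chain exceeded the heavy chain in every liver. The ratio was 2.03 to 2.35 for WT, 2.24 to 2.96 for SKO and 2.40 to 2.90 for DKO. All DKO livers lay above all WT livers in this ratio, while SKO and WT livers overlapped. The excess rests on the gene lengths used, 3469 bases for Fth1 and 1340 for Ftl1. In CPM the order in WT livers was reversed, at 1373 to 1601 for Fth1 and 1152 to 1277 for Ftl1. Ferritin genes have related copies that could share reads. Of 15 such copies in the table, 11 had 0 counts in all livers, and the Ftl1 and Ftl2 copies together held 2.39 to 4.52% of the Ftl1 count. The copy Ftl1-ps1, with 461 to 2369 counts a liver, rose with Ftl1 in SKO livers by 1.01 on the log2 scale (adjusted p = 0.00244). Whether reads were split between them was not tested.

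In heme synthesis, only the last of the 3 enzymes fell. Fech (ENSMUSG00000024588) was at 183, 172, 201 and 195 CPM in WT and at 136, 112, 104 and 120 CPM in SKO livers. No SKO liver reached the lowest WT liver, and the log2 fold change was -0.68 (SE 0.12, adjusted p = 0.00156), or 1.60-fold lower. Alas1 (ENSMUSG00000032786) varied widely within each genotype, at 609, 859, 1138 and 1285 CPM in WT and 1403, 892, 914 and 741 CPM in SKO livers. Its log2 fold change of 0.02 had a 95% interval from -0.52 to 0.56. For Alad (ENSMUSG00000028393), at 96.3 to 123 CPM in WT and 67.1 to 105 CPM in SKO livers, it was -0.27 with an interval from -0.62 to 0.08.

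The transferrin receptors had opposite signs. Tfr2 (ENSMUSG00000029716), the receptor that dominates in hepatocytes, was at 430, 562, 631 and 588 CPM in WT and at 444, 406, 412 and 347 CPM in SKO livers. One SKO liver lay above the lowest WT liver, and Tfr2 fell by 0.46 on the log2 scale (SE 0.15, adjusted p = 0.0321). This call was lost in 7 of 13 alternatives, among them leaving out WT replicate 2, 3 or 4 or SKO replicate 2 or 4, with an adjusted p of at most 0.0913. Tfrc (ENSMUSG00000022797) had 32.5 to 49.0 CPM in WT and 29.4 to 69.2 CPM in SKO livers, a log2 fold change of 0.32 with a 95% interval from -0.18 to 0.83. Without SKO replicate 4 it was 0.52 with an adjusted p of 0.0499.

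**Figure D2:**
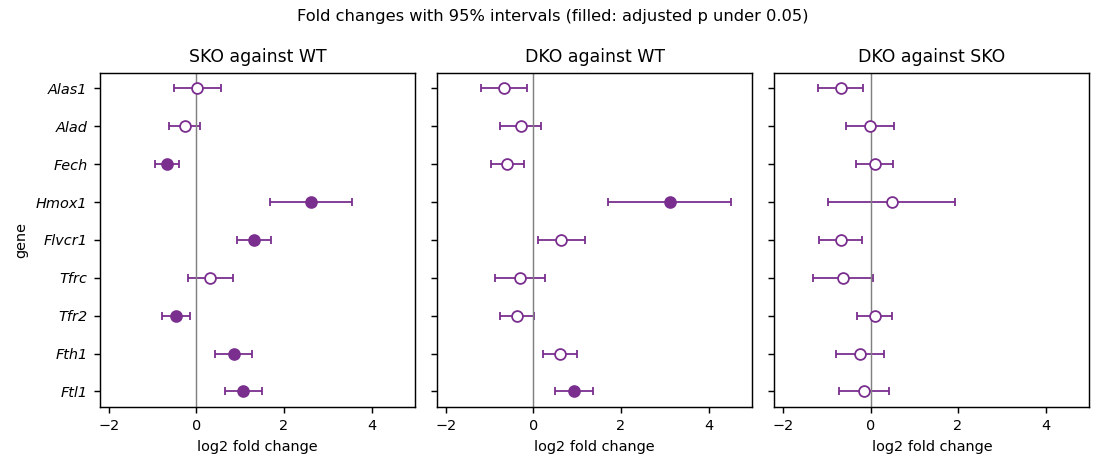
Log2 fold change of each gene (points) with its 95% interval (bars) in the 3 comparisons; filled points had an adjusted p under 0.05 in edgeR's quasi-likelihood test. Filled points are Fech, Hmox1, Flvcr1, Tfr2, Fth1 and Ftl1 for SKO against WT, Hmox1 and Ftl1 for DKO against WT, and none for DKO against SKO.

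The comparison of DKO with WT livers covers the same loss of Cpt2 with Atf3 also targeted, although DKO replicates 1 to 3 had more Atf3 counts than any WT liver. Hmox1 and Ftl1 rose and no member fell, where 6.06% of the 14448 genes tested rose and 4.39% fell. Hmox1, Ftl1, Fth1 and Fech did not overlap between the groups, 4 of 9 members against 16.8% of all genes. The same WT livers serve both comparisons, so their values are given side by side without a test of likeness.

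Hmox1 was at 310, 93.8, 148 and 25.3 CPM in DKO replicates 1 to 4, with the highest and the lowest KO liver of the study in this one genotype. All 4 exceeded the WT range of 11.2 to 22.7 CPM, and the log2 fold change was 3.11 (SE 0.63, adjusted p = 0.0200), or 8.64-fold. Without DKO replicate 1, the highest liver, it was 2.41 (adjusted p = 0.0421), or 5.33-fold. Ftl1 was at 2325, 2553, 2721 and 1513 CPM, all above WT, with a log2 fold change of 0.92 (SE 0.19, adjusted p = 0.0224). Both calls turned on single livers: that of Hmox1 was lost without DKO replicate 3 or any single WT liver (adjusted p up to 0.0689), and that of Ftl1 without any single liver other than DKO replicate 4 (up to 0.0750).

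Fth1, at 2197, 2564, 2430 and 1634 CPM in DKO livers, was above all WT livers with a log2 fold change of 0.60 (SE 0.17, adjusted p = 0.0555). Fech, at 110, 120, 99.2 and 164 CPM, was below all WT livers with a log2 fold change of -0.59 (SE 0.17, adjusted p = 0.0525). Both lay just outside the threshold. Alas1 was at 620, 681, 459 and 662 CPM, and only WT replicate 1, at 609 CPM, fell into that range. Its log2 fold change was -0.67 (SE 0.24, adjusted p = 0.0967), and that of Flvcr1 was 0.64 (SE 0.24, adjusted p = 0.112), from 6.85, 5.08, 6.51 and 3.62 CPM. For Tfr2, Alad and Tfrc the values were -0.37 (95% interval -0.77 to 0.02), -0.30 (-0.76 to 0.17) and -0.31 (-0.89 to 0.26).

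DKO replicate 4, the liver with Xist counts and 5 Atf3 counts, stood nearest to WT for most of these genes. It was below the other 3 DKO livers for Hmox1, Flvcr1, Fth1 and Ftl1 and above them for Alad (121 against at most 90.0 CPM), Fech and Tfr2 (523 against at most 420 CPM). Its Cpt2, at 99.9 CPM, was the lowest of all 12 livers. Without it, 8 of the 9 members passed the threshold, Hmox1, Flvcr1, Fth1 and Ftl1 higher and Alas1, Alad, Fech and Tfr2 lower, while 35.9% of all genes did. In that comparison of 3 DKO with 4 WT livers, the log2 fold change was 3.46 for Hmox1 (adjusted p = 4.28e-05), 1.07 for Ftl1 (3.23e-05), 0.72 for Fth1 (0.000610) and 0.79 for Flvcr1 (0.0126). On the lower side it was -0.77 for Fech (0.000291), -0.72 for Alas1 (0.0315), -0.52 for Alad (0.0157) and -0.50 for Tfr2 (0.0176), while Tfrc stayed outside at -0.45 (0.178). The part of sex or of Atf3 level in this liver was not tested.

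**Figure D3:**
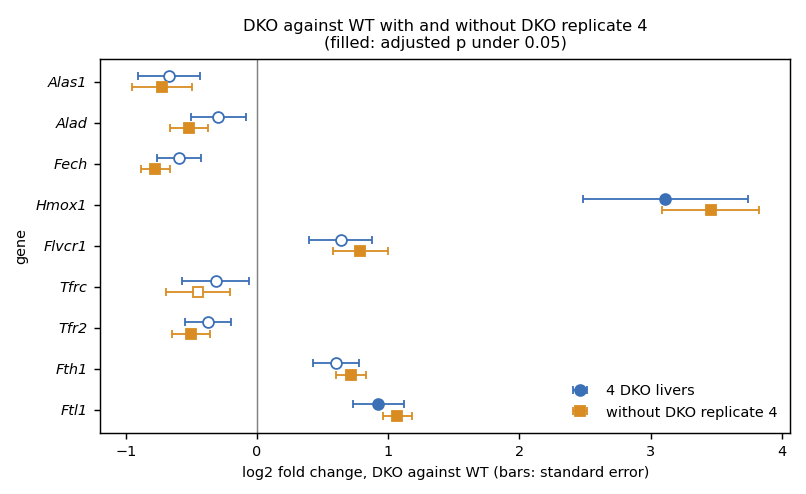
Log2 fold change of DKO against WT (points) with its standard error (bars), from all 4 DKO livers (circles) and without DKO replicate 4 (squares); filled symbols had an adjusted p under 0.05. With all livers Hmox1 and Ftl1 are filled, and without DKO replicate 4 all members but Tfrc are.

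SKO replicate 3, the other liver with Xist counts, shared part of this. Hmox1, Fth1 and Ftl1 were lowest of their genotype in both livers, but Fech was lowest in SKO replicate 3 and highest in DKO replicate 4. Summed markers of Kupffer cells, the liver macrophages that recycle red cells, were at 736 CPM in SKO replicate 3 and 669 CPM in DKO replicate 4, the highest of their genotypes, against 289 to 524 in the other SKO livers and 190 to 291 in the other DKO livers. WT livers had 325 to 642 CPM of these 14 markers, with both the highest sum and the highest WT level of Hmox1 in WT replicate 1 and both the lowest in WT replicate 4. The KO extremes were the reverse: SKO replicate 4 and DKO replicate 1 had the lowest sum and the highest Hmox1 of their genotypes. Of the 14 markers, Cd68 rose in SKO livers (log2 fold change 2.28, adjusted p = 0.000107) and Marco fell in DKO livers (-1.95, adjusted p = 0.0288), and the other 12 passed in neither comparison with WT. In DKO livers 13 of the 14 had a negative log2 fold change against WT, with a median of -0.37. The call of Marco was lost without any single liver other than WT replicate 4 or DKO replicate 4.

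Red cell RNA was checked because immature red cells make heme. The 11 erythroid markers in the table summed to 120 to 257 CPM for WT, 161 to 535 CPM for SKO and 130 to 717 CPM for DKO. Between 2 and 4 of them had 0 counts in a liver, and Epb42 and Gata1, which mark erythroid cells, averaged under 0.1 CPM in every genotype. Of the 6 erythroid markers tested in SKO livers, 2 were higher and 2 lower, with a median log2 fold change of 0.98. The globins Hba-a1 (1.27, adjusted p = 0.0211) and Hbb-bs (1.33, adjusted p = 0.0291) were higher while Alas2 and Klf1 were lower (-1.23, adjusted p = 0.0181, and -0.92, adjusted p = 0.0166), and both globin calls were lost without SKO replicate 2 or 4 or WT replicate 2 or 3. Summed stellate cell markers were 191 to 227 CPM in WT livers and higher in every KO liver, at 263 to 353 CPM for SKO and 245 to 308 CPM for DKO. Dcn was the most abundant of those 8 genes, with means of 116, 178 and 156 CPM in WT, SKO and DKO livers. It alone was called in SKO livers (0.61, adjusted p = 0.00630). Of the 8, 3 had a negative log2 fold change against WT in SKO livers and 0 in DKO livers. Summed endothelial markers overlapped between genotypes, at 174 to 382 CPM for WT, 234 to 312 CPM for SKO and 209 to 297 CPM for DKO. The part of other cell types in the members' differences was not tested.

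The comparison of DKO with SKO livers asks what targeting Atf3 adds. Atf3 itself was at 0.266 to 13.5 CPM in DKO and 14.5 to 54.0 CPM in SKO livers and was not called (log2 fold change -1.91, unadjusted p = 0.0243 and adjusted p = 0.701 in edgeR), with DKO replicates 1 to 3 above every WT liver. No member was called by edgeR's quasi-likelihood test, by which 0.00696% of 14363 genes rose and 0.0139% fell, and none was called by DESeq2. At an unadjusted p under 0.05 there were 2 members, Alas1 and Flvcr1, against 6.49% of all genes, and the same pair did not overlap between the groups, against 3.94% of all genes. Both were lower in DKO livers.

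Alas1 was at 459 to 681 CPM in DKO and 741 to 1403 CPM in SKO livers, so that the highest DKO liver stood under the lowest SKO liver. The log2 fold change was -0.68 (95% interval -1.21 to -0.16, unadjusted p = 0.0148 and adjusted p = 0.633 in edgeR). Flvcr1 was at 3.62 to 6.85 CPM in DKO and 8.19 to 9.88 CPM in SKO livers, with a log2 fold change of -0.68 (95% interval -1.17 to -0.19, unadjusted p = 0.0117 and adjusted p = 0.607 in edgeR). Neither passed under any of 14 alternatives. All 14 Kupffer cell markers had a negative log2 fold change in this comparison, with a median of -0.42 against 0.01 over all genes tested and none called by edgeR, and their part in these values was not tested. Tfrc, at 21.1 to 45.3 CPM in DKO and 29.4 to 69.2 CPM in SKO livers, gave -0.63 with an interval from -1.32 to 0.06.

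For the other 6 members the differences were smaller and the intervals crossed 0. Hmox1 was the least certain, at 0.49 with an interval from -0.96 to 1.94. Fth1 and Ftl1 were at -0.24 (-0.79 to 0.30) and -0.15 (-0.72 to 0.43). For Fech, Tfr2 and Alad the values were 0.09 (-0.33 to 0.51), 0.09 (-0.31 to 0.50) and -0.02 (-0.57 to 0.53).

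The wider pathway was read from lists of other genes with the same roles. Each count is to be read against the share of all genes called, which was 16.7% higher and 15.4% lower in SKO livers, 6.06% and 4.39% in DKO livers, and 18.4% and 17.5% in DKO livers without DKO replicate 4. Among 16 other genes of heme synthesis and its transport, 2 rose and 7 fell in SKO livers, with a median log2 fold change of -0.25 against 0.03 over all genes tested. Alas2, the synthase of red cells, was at 42.0 to 59.6 CPM in WT and 7.54 to 32.7 CPM in SKO livers. Abcb10, a transporter of the inner mitochondrial membrane, fell by 1.01 on the log2 scale (adjusted p = 0.000598), from 30.0 to 36.1 CPM in WT to 12.2 to 19.99 CPM in SKO livers. The mitochondrial iron importers moved apart: Slc25a37 (mitoferrin 1) fell by 0.82 (adjusted p = 0.00228) and Slc25a28 (mitoferrin 2) rose by 0.89 (adjusted p = 0.000456). Cpox, a later enzyme, fell (-0.47, adjusted p = 0.0385).

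In DKO livers 1 of these 16 genes rose and 4 fell, against 6.06% and 4.39% of all genes, with a median of -0.19. Without DKO replicate 4 there were 2 higher and 8 lower, with a median of -0.32, and without any other single liver 0 higher and 1 or 2 lower. Abcb10 (-0.86, adjusted p = 0.00527), Slc25a37 (-0.70, adjusted p = 0.0367), Slc25a38, which carries glycine for the first step (-0.66, adjusted p = 0.0396), and Alas2 (-0.92, adjusted p = 0.0378) fell. Clpx, the mitochondrial unfoldase known to act on ALA synthase, rose. It had 90.0 to 126 CPM in the WT and 72.4 to 135 CPM in the SKO group but 246, 363, 149 and 147 CPM in the DKO group, above every liver of the other genotypes. Its log2 fold change was 1.11 (SE 0.28, adjusted p = 0.0384) against WT and 1.31 (SE 0.31, adjusted p = 0.396) against SKO.

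Among 11 genes of heme breakdown, heme transport and plasma scavenging, 5 rose and 4 fell in SKO livers, against 16.7% and 15.4% of all genes, with a median log2 fold change of 0.26 against 0.03. Slc48a1, which moves heme out of lysosomes, rose from 64.1 to 73.0 CPM in WT to 94.7 to 171 CPM in SKO livers (1.01, adjusted p = 0.000947). Blvrb, a biliverdin reductase, and Ugt1a1, which conjugates bilirubin, also rose (0.50, adjusted p = 0.0434, and 0.68, adjusted p = 0.0250). Hmox2, the other heme oxygenase, was called lower, at 37.4 to 50.1 CPM in WT and 28.1 to 35.9 CPM in SKO livers. The plasma carriers fell: Hp, haptoglobin, by 1.06 (adjusted p = 0.00102) and Hpx, hemopexin, by 0.52 (adjusted p = 0.0255), together with the hemopexin receptor Lrp1 by 1.51 (adjusted p = 0.000702). These counts turned on single livers, with 1 gene higher and 3 lower without WT replicate 1 or WT replicate 2, as also with all 12 livers in 1 fit, and 2 higher and 4 lower without WT replicate 4. In DKO livers Lrp1 alone of this list passed in edgeR (-1.03, adjusted p = 0.0283), against 1 gene higher and 2 lower in DESeq2 and 3 higher and 4 lower in edgeR without DKO replicate 4, where 35.9% of all genes were called.

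Among the lists, genes of iron uptake other than the transferrin receptors themselves had the lowest median in SKO livers. Of 9 genes 6 fell and none rose, with a median log2 fold change of -1.14. Trf, transferrin itself, went from 11214 to 13007 CPM in WT to 3822 to 4241 CPM in SKO livers (-1.61, adjusted p = 1.25e-05). Steap3, the reductase that works with the transferrin receptor, went from 24.5 to 41.8 CPM to 5.78 to 8.83 CPM (-2.32, adjusted p = 1.30e-05). Steap4 (-1.58), Slc39a14 (-1.14) and Slc39a8 (-0.93), the last pair importers of iron not bound to transferrin, also fell. In DKO livers Steap3 alone passed in edgeR (-1.74, adjusted p = 0.0240), with a list median of -0.81, and DESeq2 also called Steap4 (-1.13, adjusted p = 0.0345). DKO replicate 4 had 14272 CPM of Trf and the other 3 DKO livers had 3769 to 4519 CPM, and without it 6 of the 9 genes were lower, with a median of -1.22. Hepatocyte markers moved in the same direction, with 4 of 8 called lower and a median of -0.78 in SKO livers and 1 of 8 and -0.41 in DKO livers, and their part in the iron uptake values was not tested.

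Storage and export were mixed. Pcbp1, a chaperone that delivers iron to ferritin, rose in SKO (0.66, adjusted p = 0.00230) and in DKO livers (0.59, adjusted p = 0.0404). Pcbp2 rose in SKO livers (0.55, adjusted p = 0.00410), where Ncoa4, the receptor for ferritin breakdown, fell by 0.61 (adjusted p = 0.0241) and the ferroxidase Cp by 1.30 (adjusted p = 0.00152). The exporter Slc40a1, which carries an iron-responsive hairpin in its 5′UTR, was at 163 to 205 CPM in WT and 111 to 311 CPM in SKO livers (0.06, adjusted p = 0.898). The 5 genes listed with such a hairpin therefore did not share a direction in SKO livers, with Fth1 and Ftl1 higher, Alas2 lower and Slc40a1 and Tfrc not called.

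Among 8 genes of hepcidin and its control, Hamp, the iron hormone, had 614 to 1045 CPM in WT livers, against 511 to 737 CPM for SKO and 500 to 1025 CPM for DKO, and was not called (-0.34, adjusted p = 0.194 in SKO). Its neighbour Hamp2 fell in SKO livers from 5.15 to 13.7 CPM to 0.0561 to 1.82 CPM (-3.25, adjusted p = 0.00152), and it reached 66.8 CPM in DKO replicate 4 against at most 0.915 CPM in the other DKO livers. The genes are homologous, and whether reads were split between them was not tested. Tmprss6, which restrains hepcidin, fell (-0.55, adjusted p = 0.00762) and Id1, a target of the BMP signal that also drives hepcidin, rose (0.93, adjusted p = 0.0163) in SKO livers. With all 12 livers in 1 fit, neither Hamp2 (adjusted p = 0.108) nor Tmprss6 (adjusted p = 0.0786) passed. None of the 8 passed in DKO livers by edgeR or DESeq2, which gave Hamp2 no adjusted p, and in edgeR 1 had an unadjusted p under 0.05, but without DKO replicate 4 there was 1 gene higher and 2 were lower.

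Of the iron-regulatory proteins, Aco1 fell in SKO livers (-0.52, adjusted p = 0.0130) and Ireb2 was not called (-0.04, adjusted p = 0.867). Iron-sulfur assembly had 1 of 14 genes higher, Glrx5 (0.52, adjusted p = 0.0102), and 1 lower, Fdx1 (-0.44, adjusted p = 0.0154), in SKO livers, where 16.7% of all genes rose and 15.4% fell. With all 12 livers in 1 fit neither passed (adjusted p = 0.0870 and 0.0837). In DKO livers Lyrm4 rose (0.70, adjusted p = 0.0304) and Fdxr fell (-0.59, adjusted p = 0.0354). Of 8 factors known to act on Alas1, Nrf1, the nuclear respiratory factor, was called, at 0.57 in SKO (adjusted p = 0.00760) and 0.68 in DKO livers (adjusted p = 0.0165). The coactivator Ppargc1a ranged from 5.50 to 43.7 CPM among SKO livers alone (-0.47, adjusted p = 0.496), and without SKO replicate 3 its log2 fold change was -1.25 (adjusted p = 0.0132), with 2 of the 8 higher and 2 lower. In SKO livers 1 of the 8 was higher and 1 lower both with DESeq2 and in edgeR without a filter. Between DKO and SKO livers no gene of these 8 lists was called by edgeR, where 5 of 75 had an unadjusted p under 0.05, and 1 was called by DESeq2, Clpx (1.29, adjusted p = 0.0212).

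Most list calls in DKO livers turned on single livers. Against WT, 4 of the 75 genes tested in the 8 lists rose and 7 fell, while 11 were higher and 27 lower without DKO replicate 4. Over all genes the share called went from 6.06% higher and 4.39% lower to 18.4% and 17.5% in the same step. Storage and export then had 1 gene higher and 2 lower, iron sensing 1 and 1, iron-sulfur assembly 2 and 3, and the factors acting on Alas1 1 and 1. Of the 11 genes called, only Abcb10 passed without each liver in turn (adjusted p up to 0.0285). Pcbp1, Clpx and Slc25a38 lost their call without any single liver other than DKO replicate 4, and Lrp1, Steap3, Lyrm4, Fdxr, Nrf1 and Slc25a37 without any other than WT replicate 3 or DKO replicate 4. Alas2 kept its call only without DKO replicate 1 or 4. In SKO livers 23 of 35 list genes called against WT passed without each liver in turn. Of those named above, Alas2, Cpox, Blvrb, Hmox2, Ugt1a1, Hpx, Ncoa4 and Id1 did not, with an adjusted p of at most 0.0980 for Cpox, 0.122 for Blvrb and 0.0870 for the rest. With all 12 livers in 1 fit 12 of the 35 lost their call, among them Cpox, Blvrb, Ugt1a1, Hpx and Ncoa4.

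**Figure D4:**
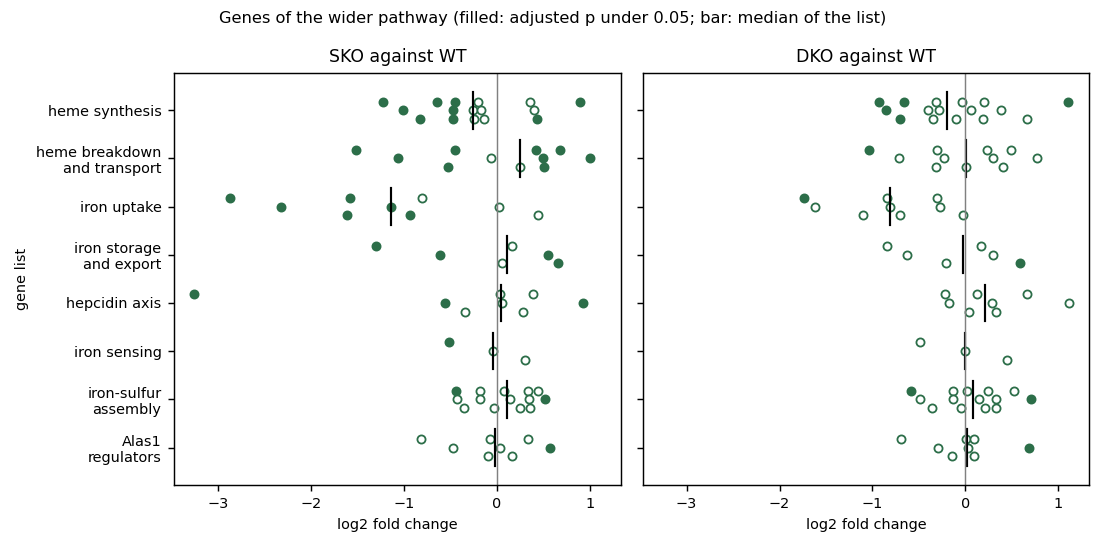
Log2 fold change of every tested gene (points) in 8 lists of the wider pathway, for SKO and DKO against WT; filled points had an adjusted p under 0.05 and the black bar is the median of the list. In SKO livers 6 of 9 iron uptake genes are filled and negative, and in DKO livers 1 is.

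The genes whose log2 CPM followed each member most closely over the 12 livers, among 9790 genes of at least 5 CPM on average, differed between members. Fth1 was nearest to Arf4 (Pearson r = 0.987) and Ftl1 to the stress gene Nupr1 (r = 0.985), whose mean was 0.519 CPM for WT, 20.96 CPM for SKO and 16.9 CPM for DKO. Flvcr1 was nearest to the lysosomal tetraspanin Cd63 (r = 0.966), at 3.78, 46.8 and 18.2 CPM. Hmox1 followed Mir17hg (r = 0.971) and the polyamine enzyme Sat1 (r = 0.965), and Fech followed Dsg2 (r = 0.976). The second nearest gene to Tfr2 was Aco1 (r = 0.945). Alas1 and Tfrc had no gene above r = 0.862 and 0.885. These values describe livers that share genotypes and carry no test.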

How the data were processed

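Total liver RNA was made into libraries and sequenced by Novogene. Deposited by the authors were raw read counts per Ensembl gene and FPKM, which they scaled by gene length and library size. The submitters' processing notes name HISAT2 and GRCm38/mm10. The gene starts in the tables differ from GRCm38 for all 9 members, so no gene coordinates are given, and the hairpins are placed on GRCm38 with GENCODE M21. The counting program, its strand setting and the annotation release are not given in the sources used here. Deposited tables of the authors' own comparisons (log2 fold changes and p-values) were not used.

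Genotypes were compared in pairs (edgeR 4.0.16, R 4.3.3, TMM, filterByExpr, quasi-likelihood test, two-sided, Benjamini-Hochberg adjustment over all genes tested, threshold 0.05). CPM was scaled by TMM over all 12 livers. On simulated counts the test recovered 198, 190 and 188 of 200 genes changed 4-fold by design for SKO against WT, DKO against WT and DKO against SKO, with 14, 7 and 6 false calls among 14075, 14161 and 14134 genes; smaller changes were not simulated. Alternatives were DESeq2 1.42.0, RLE scaling, no filter, all 12 livers in 1 fit, the replicate number as a block and leaving out livers. Members and lists were chosen with earlier results of these data known. Named genes were the 9 members, the 3 smallest p-values of each list and comparison, called list genes whose groups did not overlap, the 3 genes most like each member, and genes for checks. Some list genes are not reported here.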

Additional observations from a re-analysis of the deposited data

How the results depend on the processing

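In SKO against WT, the calls of Hmox1, Flvcr1, Ftl1, Fth1 and Fech held in all 13 alternatives, and the sign of Alas1, near 0, turned with RLE scaling (-0.0022) and ranged from -0.19 to 0.17 when 1 liver was left out. In DKO against WT, the 2 members and 1510 genes called became 5 members and 2509 genes with DESeq2, where Alas1 (adjusted p = 0.0426), Fech (0.0127) and Fth1 (0.00694) were added, and Fech also passed with all 12 livers in 1 fit (0.0298). Leaving out 1 liver gave 0 to 8 members and 244 to 5253 genes there, with the highest values without DKO replicate 4. In DKO against SKO no member passed under any alternative, while the 3 genes called became 91 with DESeq2, 35 without a filter, 21 without both livers with Xist counts and 0 to 15 when 1 liver was left out. Signs near 0 turned there for Alad (-0.25 to 0.11), Fech (-0.099 to 0.18), Hmox1 (-0.21 to 0.97) and Tfr2 (-0.044 to 0.18) when 1 liver was left out, and without both livers with Xist counts for Fech (-0.15) and Tfr2 (-0.030). Against WT, leaving out both of these livers equals leaving out SKO replicate 3 or DKO replicate 4. The cause of these changes was not tested. The median of all genes against WT was 0.03 with TMM and 0.01 with RLE for both KOs.

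Deviations of same-numbered livers from their genotype means correlated between -0.43 and 0.16. Livers with different numbers were not compared in this way, so whether the replicate numbers of the titles mark shared litters or batches was not tested. With the replicate block 1 member (Hmox1) and 807 genes were called in DKO against WT, 0 genes in DKO against SKO, and Tfr2 was not called in SKO against WT (-0.45, adjusted p = 0.0809). Of the list genes, 5 of 35 calls in SKO livers were lost with the block and 3 were gained, Ppargc1a (-0.79, adjusted p = 0.0473) among them, while in DKO livers 5 of 11 were lost and 0 gained. For the 9 members, Dixon's test flagged no liver as far from the other 3 of its genotype in 27 groups of 4. With 4 values it can flag only extreme gaps, and it passed over Ftl1 in DKO replicate 4, at 1513 CPM against 2325 to 2721 CPM in the other DKO livers. Over all genes DKO replicate 4 stood apart, with a chi-square per degree of freedom of 220 to 261 against the other DKO livers and 31.1 to 37.4 among those.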
